A study of Mus musculus with 4 samples.

Results

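The genes described here are the heat shock proteins and chaperonins of mouse Beko cells, a progenitor T-cell line with constitutive Notch activity. They were taken from the count table by symbol, as every gene whose name starts with Hspa, Hspb, Hspc, Hspd, Hspe, Hsph, Hsp9, Dnaja, Dnajb, Dnajc or one of Cct2 to Cct8, together with Tcp1 and without Hspbp1 and Hspbap1, which bind chaperones but are not part of the family. This gave 82 of the 24391 genes in the table. RNA-Seq was available for 4 libraries. In the GSI condition, 2 libraries came from cells that had been given DAPT, a γ-secretase inhibitor (GSI) that stops the release of the active Notch fragment, for 48 h, with fresh inhibitor added at 24 h. In the washout condition, 2 libraries came from cells that had the same 48 h of inhibitor, were washed and grew for another 24 h. The labels write the dose as 10 mg/ml and the study's methods as 10 μg/ml. Both conditions share the inhibitor, the cell line is a single established line, and no vehicle-only library was analysed here. The return of Notch activity, the wash and the extra day of culture therefore cannot be told apart in any of these comparisons. The replicates are not described as separate cultures, so that p-values measure the spread between these libraries, which may be technical.

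Chaperones help other proteins to reach and keep their folded shape. HSP70 proteins bind short greasy stretches in a cycle driven by ATP, J-proteins (the Dnaj genes) bring them their clients and start ATP hydrolysis, and HSP110 proteins exchange the nucleotide and reset the cycle. HSP90 takes over kinases, receptors and other clients that are nearly folded, and chaperonins are hollow rings in which whole domains fold, either the mitochondrial HSP60 ring or the cytosolic CCT ring, whose best known clients are actin and tubulin. Some of these genes are made at all times, whereas others are switched on by heat shock factors or, in the endoplasmic reticulum (ER), by the unfolded protein response.

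The reads counted on genes came to between 13716199 and 36364200 per library, and replicate 1 was the deeper library in both conditions. Counts were scaled to CPM, counts per 1000000 of the library total times its TMM factor, and 3 counts correspond to between 0.0881 and 0.223 CPM. Replicates differed beyond sampling noise, and the biological coefficient of variation was 0.121. The 5 Notch targets checked (Hes1, Hey1, Dtx1, Il2ra and Notch1) were all higher upon washout past both thresholds. All 10 T-cell markers passed the filter, with a summed level of 6099 to 6752 CPM under GSI and 7147 to 7151 CPM after washout, whereas the 4 B-cell markers, at most 0.438 CPM each, did not. Within the T-cell list, Ptcra, Notch1 and Cd3g were higher at the adjusted p-value (log2 fold changes of 2.37, 1.14 and 0.86) and Tcf7, Bcl11b and Thy1 lower (-0.87, -0.72 and -0.58). Of the 5 myeloid and mast cell markers, Mpo, Csf1r and Lyz2 stood at no more than 0.219 CPM, but Cpa3 and Kit fell with washout, and the summed level of the list was 167 to 275 CPM under GSI and 30.7 to 45.8 CPM after washout. The part of these cells or genes in the results below was not tested. In bulk RNA, fewer cells that express a gene and less RNA per cell cannot be told apart.

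Upon washout, genes of the HSP90, HSP110, CCT and mitochondrial chaperones were among the members that rose, and the members that were lower past both thresholds were weakly expressed. The 82 genes together held 1.06% and 1.14% of the counted reads in GSI replicates 1 and 2 and 1.80% and 1.81% in washout replicates 1 and 2. Their summed level in CPM was 1.89-fold higher after washout. For the test, 70 of the 82 genes passed the filter on low counts. A gene was called where the quasi-likelihood test of edgeR, adjusted by the Benjamini-Hochberg method over all 12266 genes tested, gave an adjusted p-value under 0.05 and the log2 fold change was over 1 or under -1. By this rule 14 members were higher upon washout, beside 7.74% of all genes tested, and 8 were lower, beside 11.7% of all genes tested. At the adjusted p-value alone 29 members were higher (27.0% of all genes tested) and 13 were lower (25.4%), and 28 had no call. In 34 members both washout libraries lay above both GSI libraries (38.2% of all genes tested) and in 23 both lay below (39.1%). The median log2 fold change was 0.20 over the members tested and -0.01 over all genes tested. Scaling by the total count alone shifted the median of all genes by -0.20 and gave 12 higher and 9 lower members, and the share of higher among all called genes moved from 39.8% to 23.0%.

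**Figure D1:**
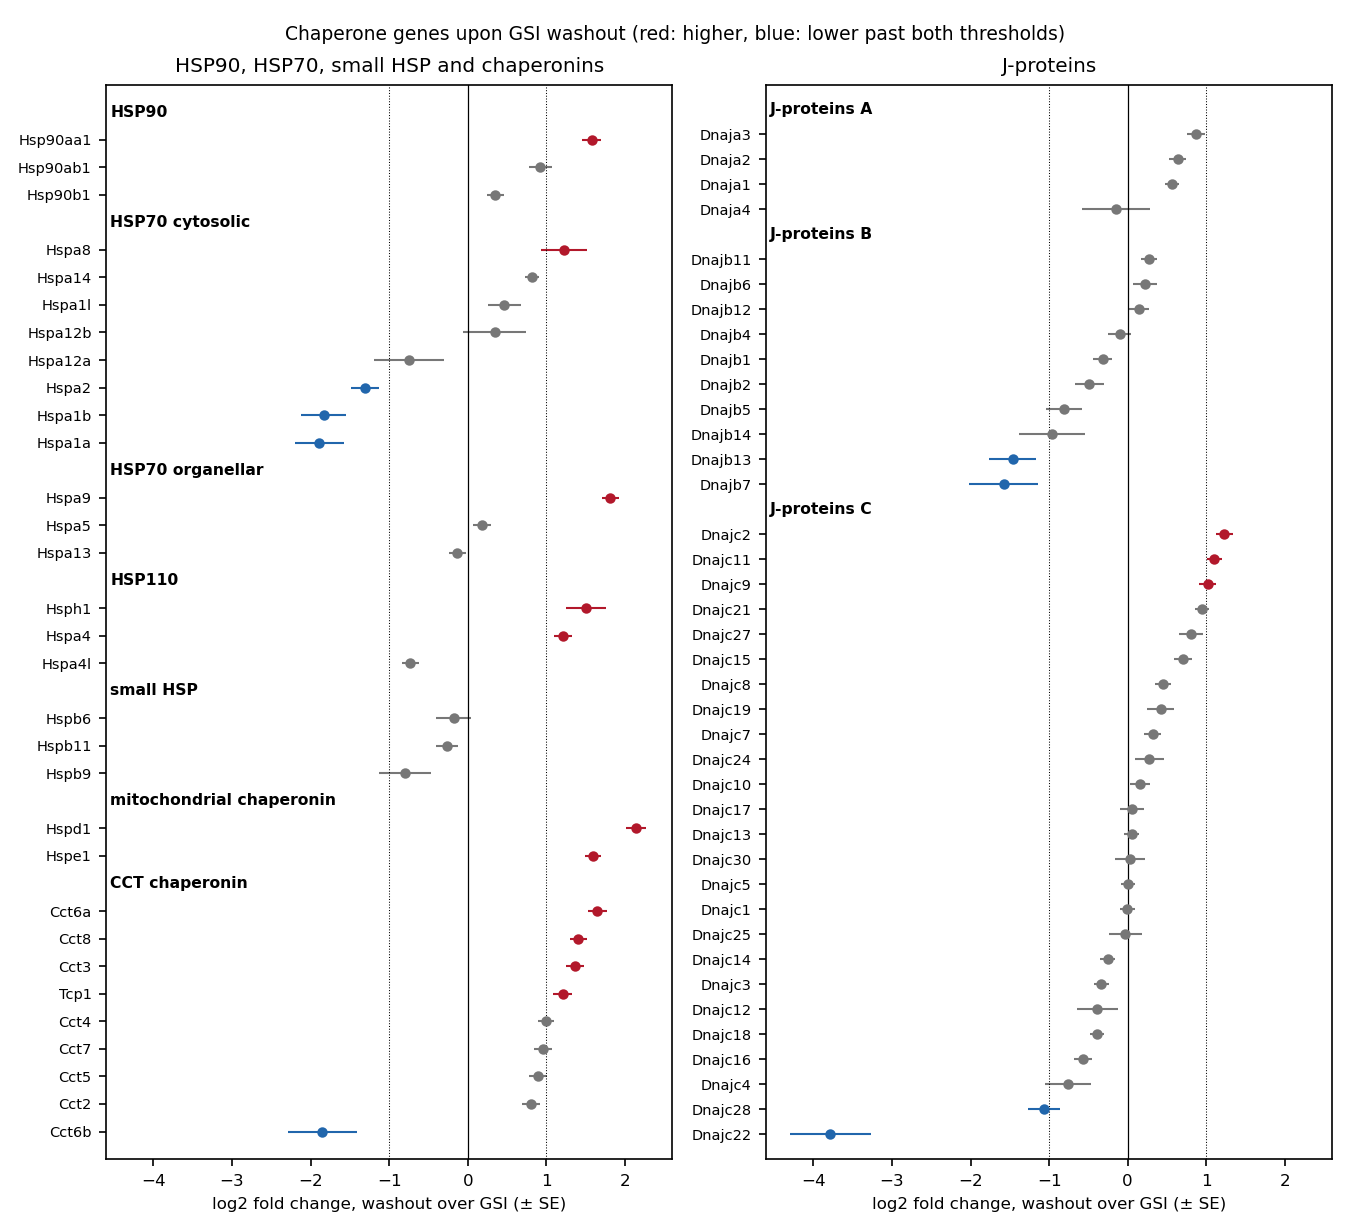
Log2 fold change of washout over GSI with its standard error for the 70 members tested, grouped by role, from 2 libraries per condition. Red points are higher and blue points lower past both thresholds, and dotted lines mark log2 fold changes of 1 and -1. Hspd1 stands farthest to the right at 2.14 and Dnajc22 farthest to the left at -3.78.

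Of the 35 members with an average level of at least 6 log2 CPM, 14 were higher and 0 were lower, and their median log2 fold change was 0.92. Among all 4029 genes at that level, 10.7% were higher and 4.32% lower, with a median of 0.19. In the middle range, from 3 to 6 log2 CPM, 0 of 18 members were higher and 2 lower, beside 6.81% and 9.39% of all 5259 genes there. Below 3 log2 CPM, 0 of 17 members were higher and 6 lower with a median of -0.80, where 25.8% of all 2978 genes were lower and the median was -0.48. Of these 6, Cct6b, Dnajb7 and Dnajc22 passed the filter through the GSI libraries, where they were high. Their fall is therefore partly fixed by the filter. They were not tested with at least 10 counts in every library, and 5 members were lower in that fit. The least abundant member called higher was Hsph1 at 6.12 log2 CPM, and the most abundant member called lower was Hspa2 at 3.93 log2 CPM. Past both thresholds, the levels of higher and lower members thus did not overlap. At the adjusted p-value alone they did, as the lower Dnajc3 stood at 7.58 log2 CPM and the higher Dnajc15 at 4.44 log2 CPM.

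**Figure D2:**
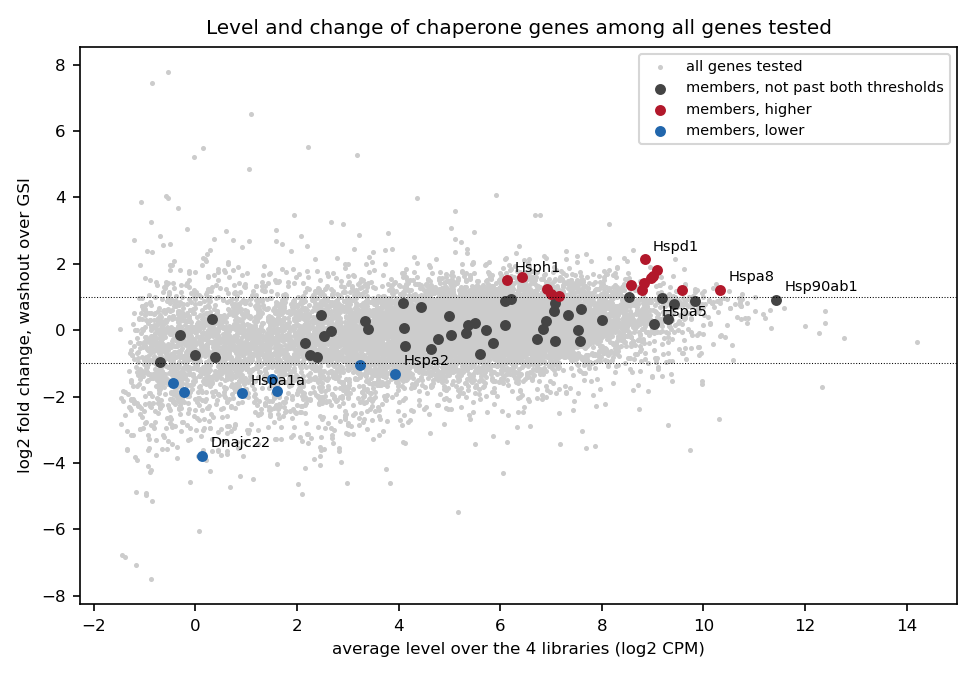
Log2 fold change of washout over GSI against the average level in log2 CPM for the 12266 genes tested (grey) and the 70 members tested (black, red for higher and blue for lower past both thresholds). All red points lie at 6.12 log2 CPM or above and all blue points at 3.93 log2 CPM or below.

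The 12 members that were too low to test were Cct8l1, Dnajb3, Dnajb8, Dnajb9, Dnajc5b, Dnajc5g, Dnajc6, Hspb1, Hspb2, Hspb3, Hspb7 and Hspb8. Of these, 5 were at 0 in every library, which allows up to 3 counts in each, and the highest total over the 4 libraries was the 38 counts of Dnajc6. Hspb1, which encodes the best known heat-inducible small heat shock protein, had 1 count in washout replicate 1 and 0 in the others.

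All 3 HSP90 genes were higher at the adjusted p-value (27.0% of all genes tested), the inducible cytosolic form by the most. However, the call of Hsp90b1 depended on the settings. Hsp90aa1, the inducible cytosolic HSP90, was at 234.5 and 268.1 CPM in the GSI libraries and at 780.4 and 718.5 CPM in the washout libraries. Both washout libraries were far above both GSI libraries, a 2.98-fold rise (log2 fold change 1.58 ± 0.123 SE, edgeR adjusted p = 0.000397). Hsp90ab1, the constitutive cytosolic HSP90 and the most abundant member, went from 1812 and 1994 CPM to 3576 and 3643 CPM. Its libraries did not overlap, and the log2 fold change of 0.92 ± 0.144 (edgeR adjusted p = 0.00289) lay just under the size threshold. Hsp90b1, the ER form also called GRP94, was at 545.4 and 569.1 CPM under GSI and 725.0 and 694.3 CPM after washout. This was the smallest change of the 3, at 0.35 ± 0.109 (edgeR adjusted p = 0.0366). It lost its call with the total count alone (0.15, edgeR adjusted p = 0.275), with the GC content and length offsets (0.13), with at least 10 counts in every library (0.31) and without GSI replicate 1, GSI replicate 2 or washout replicate 1 (0.31 to 0.39). Per length of transcript, the level of Hsp90ab1 was 10.1 and 9.69 times that of Hsp90aa1 in the GSI libraries and 5.97 and 6.60 times in the washout libraries. Reads of Hsp90aa1, which lies on chromosome 12 (mm9, chr12:111928815-111940938, minus strand), could also come from 5 other loci with a match of 97% or more, the longest over 2774 bases.

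Among the 8 cytosolic HSP70 genes, the constitutive Hspa8 rose while the heat-inducible pair Hspa1a and Hspa1b and the testis-enriched Hspa2 fell. Hspa8, the HSC70 protein that carries most of the everyday HSP70 work, was at 578.5 and 960.9 CPM in GSI replicates 1 and 2 and at 1446 and 2150 CPM in washout replicates 1 and 2. Replicate 2 was the higher library in both conditions, by 0.73 on the log2 scale under GSI and by 0.57 after washout, yet both washout libraries exceeded both GSI libraries. The log2 fold change was 1.22 ± 0.292 (edgeR adjusted p = 0.0142). It was 0.90 without GSI replicate 1 (edgeR adjusted p = 0.0531) and 0.93 without washout replicate 2, so that the call past both thresholds was lost without either library. Hspa8 (mm9, chr9:40609067-40613283, plus strand) holds the small nucleolar RNAs Snord14c, Snord14d and Snord14e and has close matches at 3 other loci, the longest over 2108 bases at 99.4% identity.

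Hspa1a was counted 85 and 46 times in the GSI libraries and 27 and 10 times in the washout libraries, or 2.66 and 3.15 CPM against 0.793 and 0.744 CPM. Hspa1b had 133 and 76 counts under GSI and 45 and 17 after washout, or 4.16 and 5.21 CPM against 1.32 and 1.27 CPM. In both genes the GSI libraries lay above the washout libraries at a low level. Hspa1a was 3.70-fold and Hspa1b 3.57-fold lower upon washout, with log2 fold changes of -1.89 ± 0.315 and -1.83 ± 0.284 (edgeR adjusted p = 0.00374 and 0.00282). These are the strictly heat-inducible HSP70 genes, and they lie side by side on chromosome 17 (mm9, chr17:35106144-35109069 and chr17:35093381-35096183, both on the minus strand). They are near-identical, with 99.3% identity over 2169 bases, so that a read could be assigned to either copy and their values are not independent. Hspa2 was at 18.8 and 24.7 CPM under GSI and at 8.49 and 9.08 CPM after washout. It was 2.47-fold lower, with no overlap between the conditions (log2 fold change -1.31 ± 0.181, edgeR adjusted p = 0.00188).

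Hspa14, the HSP70 that sits at the ribosome with the J-protein Dnajc2, rose from 95.9 and 98.6 CPM to 173.9 and 168.8 CPM (log2 fold change 0.82, edgeR adjusted p = 0.000853). Hspa1l, Hspa12a and Hspa12b had no call, with log2 fold changes of 0.46, -0.75 and 0.34. Hspa12a passed both thresholds when the libraries were thinned to equal totals (-1.34, edgeR adjusted p = 0.0411), and leaving out washout replicate 1 gave -1.58 and leaving out washout replicate 2 gave -0.39, neither with a call. The median of the 8 genes was -0.20. It was 0.29 when genes with fewer than 10 counts in a library were left out, which removed Hspa12a, and -0.40 with the total count alone, -0.44 without washout replicate 1, -0.45 after thinning and -0.72 with the GC content and length offsets. The summed level of the group, most of which is Hspa8, was 2.2-fold higher upon washout.

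The HSP110 genes, nucleotide exchange factors for HSP70, also moved in both directions, but Hsph1, unlike the heat-inducible Hspa1a and Hspa1b, rose. Hspa4 rose from 266.4 and 265.7 CPM to 653.0 and 575.8 CPM (log2 fold change 1.21 ± 0.114, edgeR adjusted p = 0.000585). Hsph1, the heat-inducible member, was at 26.5 and 46.9 CPM in GSI replicates 1 and 2 and at 94.8 and 111.3 CPM in washout replicates 1 and 2. The GSI libraries differed from each other by 0.82 on the log2 scale, but both stayed below both washout libraries (1.51 ± 0.258, edgeR adjusted p = 0.00416). Hspa4l, the relative with high expression in testis, fell by 0.73 on the log2 scale, from 57.3 and 64.2 CPM to 36.7 and 36.4 CPM (edgeR adjusted p = 0.00209).

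Of the 8 genes grouped by symbol as small heat shock genes, 3 could be tested and 0 were called. Small heat shock proteins are ATP-independent holding proteins, but the symbol alone does not show that each of these genes, such as Hspb11, encodes one. Hspb11 was at 32.6 and 26.6 CPM under GSI and 23.6 and 26.1 CPM after washout, and Hspb6 between 5.08 and 6.72 CPM in all libraries. Hspb9 was at 1.63 and 1.44 CPM under GSI and 0.881 and 0.893 CPM after washout, without overlap and without a call (log2 fold change -0.80, edgeR adjusted p = 0.0829).

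**Figure D3:**
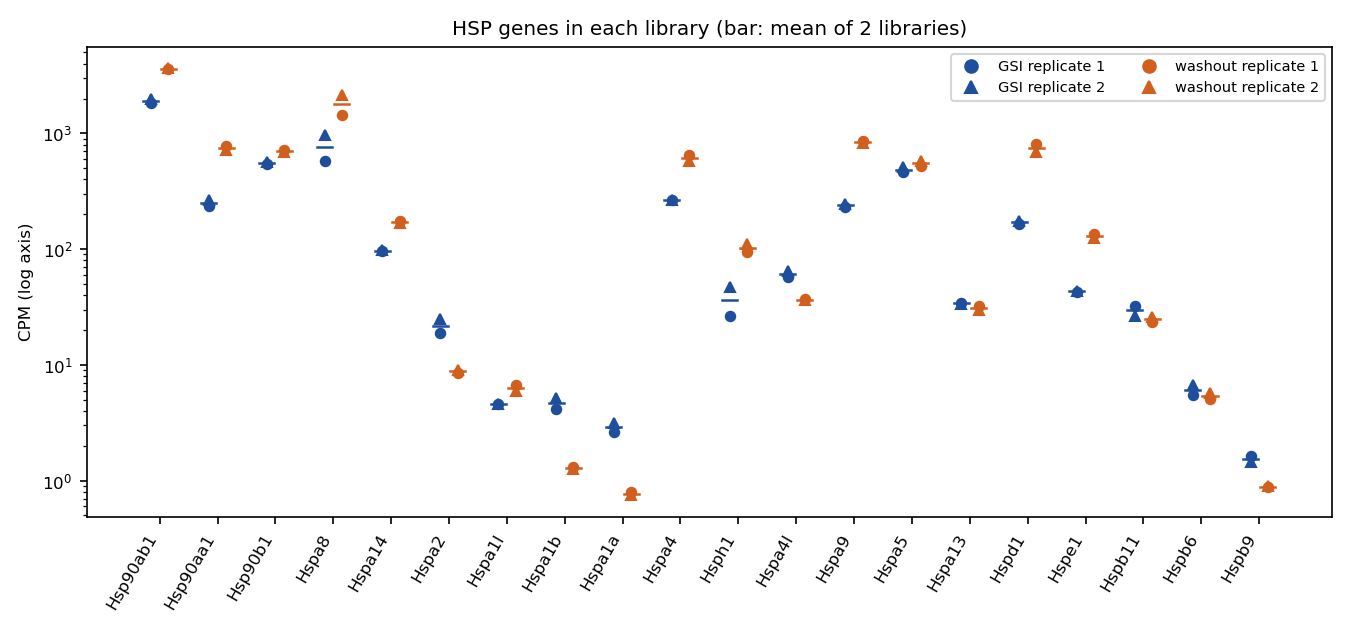
Level in CPM on a log axis of 20 HSP genes in each of the 4 libraries, with GSI in blue, washout in orange, circles for replicate 1, triangles for replicate 2 and bars for the mean of 2 libraries. Hspd1, Hspa9, Hspe1 and Hsp90aa1 are well separated upwards, Hspa1a, Hspa1b and Hspa2 downwards, and Hspa5 and Hspa13 lie close together, at 463.6 to 579.0 CPM and 29.7 to 34.5 CPM.

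Mitochondrial folding genes showed the 2 largest rises of the family, those of Hspd1 and Hspa9. Hspd1, which encodes the HSP60 ring, was at 164.9 and 175.8 CPM in the GSI libraries and at 806.9 and 691.0 CPM in the washout libraries. This was a 4.4-fold rise, well beyond the spread of the replicates (log2 fold change 2.14 ± 0.127, edgeR adjusted p = 0.000305). Hspe1, which encodes its HSP10 lid, rose 3.02-fold, from 42.5 and 43.6 CPM to 136.3 and 123.7 CPM (1.60 ± 0.0979, edgeR adjusted p = 0.000305). Per length of transcript the ratio of Hspd1 to Hspe1 was 1.24 and 1.29 in the GSI libraries and 1.89 and 1.78 in the washout libraries, with no overlap. Hspa9, the mitochondrial HSP70 mortalin, rose 3.52-fold, from 232.6 and 245.4 CPM to 863.9 and 817.5 CPM (1.81 ± 0.111, edgeR adjusted p = 0.000305).

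Hspd1 (mm9, chr1:55134679-55145087, minus strand) and Hspe1 (mm9, chr1:55144976-55148151, plus strand) are arranged head to head and overlap by their 5′ ends in the annotation. Hspd1 has close matches at 3 other loci and Hspe1 at 1, so that some of their reads could have been placed elsewhere.

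The 8 genes listed as mitochondrial chaperones were chosen with earlier results known and need not include every mitochondrial member. Within this list, 4 were higher past both thresholds (7.74% of all genes tested), 6 at the adjusted p-value (27.0%), and 0 were lower. The median log2 fold change of the list was 0.98. The fourth was Dnajc11, a J-protein at the mitochondrial outer membrane, which went from 79.0 and 83.6 CPM to 181.0 and 167.9 CPM (log2 fold change 1.10). It was 0.90 with the total count alone, under the size threshold. Dnaja3, the class A J-protein of the matrix, rose by a log2 fold change of 0.87 and Dnajc15, at the import motor of the inner membrane, by 0.70. Dnajc19, also at the import motor, was at 29.4 and 24.9 CPM under GSI and 41.7 and 30.7 CPM after washout (edgeR adjusted p = 0.0873, and 0.00626 without washout replicate 2), and Dnajc30 was at 10.5 and 10.1 CPM and 9.22 and 12.0 CPM with no direction that held under every scaling. Of 9 mitochondrial folding and protease genes outside the family, 2 were higher past both thresholds (7.74% of all genes tested). At the adjusted p-value 5 were higher (27.0%) and 0 lower. The largest log2 fold change there was that of Clpp, a matrix protease subunit, at 1.16 (0.96 with the total count alone). The lowest was that of Spg7, a subunit of an inner membrane protease, at -0.03.

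All 8 genes of the cytosolic CCT ring rose at the adjusted p-value (27.0% of all genes tested), 4 of them past both thresholds (7.74%). Cct6a rose by the most, from 245.5 and 249.9 CPM to 829.5 and 720.1 CPM (log2 fold change 1.65 ± 0.121, edgeR adjusted p = 0.000347). Cct8 followed with 240.0 and 257.3 CPM against 690.1 and 629.3 CPM (1.41), Cct3 with 199.0 and 225.8 CPM against 536.9 and 553.2 CPM (1.36) and Tcp1 with 442.4 and 478.5 CPM against 1061 and 1062 CPM (1.21). In all 8 genes both washout libraries lay above both GSI libraries (38.2% of all genes tested).

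Cct4, Cct7, Cct5 and Cct2 rose with log2 fold changes of 0.995, 0.96, 0.89 and 0.80. Cct4, at 235.7 and 259.8 CPM against 489.4 and 498.0 CPM, lay just outside the size threshold and Dnajc9, at 1.02, just inside it. The median over the 8 genes, a set formed after the values were seen, was 1.10 and their summed level rose 2.16-fold. Over the 9 tested genes of the planned CCT group, which includes Cct6b, the median was 0.995. The assembled ring holds the 8 proteins in equal number, whereas their RNAs differed by several-fold per length of transcript. Cct5 had the highest level per length and Cct4 the lowest in every library. In GSI replicate 1, Cct4, Cct8 and Cct3 lay close together, at 94.9, 100.4 and 100.7 CPM per kb. The lengths are those of the longest transcript, which need not be the one expressed, so that the order of close genes is not settled. The ratio of Cct5 to Cct4 was 3.50 and 3.23 under GSI and 3.10 and 3.15 after washout. The coefficient of variation over the 8 genes, taken on the level per length, was 49.0% and 45.4% under GSI and 36.7% and 36.8% after washout, so that the levels were more even in both washout libraries.

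**Figure D4:**
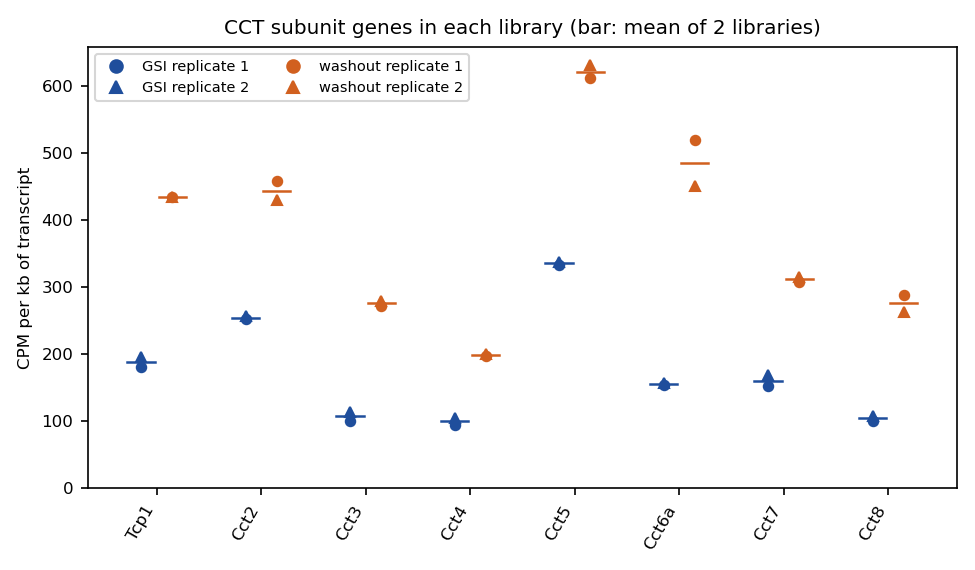
Level per length of transcript (CPM per kb, linear axis from 0) of the 8 CCT ring genes in each of the 4 libraries, with GSI in blue, washout in orange, circles for replicate 1, triangles for replicate 2 and bars for the mean of 2 libraries. Every washout point lies above both GSI points of its gene, and Cct5 is the highest and Cct4 the lowest gene in all libraries.

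The testis form Cct6b, a paralog of Cct6a, went the other way. It was counted 42 and 15 times in the GSI libraries and 9 and 6 times in the washout libraries (log2 fold change -1.85 ± 0.444, edgeR adjusted p = 0.0145). With at least 10 counts in every library Cct6b was not tested. With DESeq2 the adjusted p-value was 0.0946, and without GSI replicate 1 or washout replicate 1 the edgeR adjusted p-values were 0.112 and 0.155. Some CCT genes overlap other genes in the annotation. Tcp1 (mm9, chr17:13108567-13117933, plus strand) overlaps Acat3 and Mrpl18 on the other strand and holds snoRNAs, Cct6a (mm9, chr5:130293315-130321696, plus strand) holds a SNORA22 gene and Cct8 overlaps Usp16. The strand setting of the counting is not given in the sources used here, so that the share of reads from these neighbours in the counts is unknown.

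Of the 45 J-protein genes, 39 were tested. Past both thresholds 3 were higher and 4 lower, beside 7.74% and 11.7% of all genes tested, and at the adjusted p-value 11 were higher and 8 lower, beside 27.0% and 25.4%. These shares were near those of all genes, and 20 J-proteins had no call. Dnajc7, at a log2 fold change of 0.32, lay just inside the threshold on the adjusted p-value (0.0431 in edgeR) and Dnajb11 just outside it (0.0624). Their median log2 fold change was 0.03, and it was -0.17 with the total count alone. Class A genes, whose proteins have the full bacterial DnaJ layout, had 3 of 4 higher at the adjusted p-value and a median of 0.60. Class B had 0 of 10 tested genes higher and 3 lower at the adjusted p-value, with a median of -0.40. Class C, whose proteins share only the J domain, had 8 of 25 higher and 5 lower, with a median of 0.05.

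The J-proteins with the largest rises were Dnajc2, Dnajc11, Dnajc9, Dnajc21 and Dnaja3. Dnajc2, which works with Hspa14 at the ribosome exit, rose from 72.8 and 71.5 CPM to 181.3 and 156.8 CPM (log2 fold change 1.23 ± 0.106, edgeR adjusted p = 0.000481). Dnajc9, a histone chaperone, rose from 86.9 and 101.9 CPM to 191.4 and 190.2 CPM (1.02, edgeR adjusted p = 0.000831), and it was not called past both thresholds in 6 of 16 alternative settings. Dnajc21, which acts in the maturation of the large ribosomal subunit, rose from 51.2 and 49.5 CPM to 98.8 and 95.4 CPM (0.95). All 3 genes listed as ribosome partners, Dnajc2, Hspa14 and Dnajc21, thus rose at the adjusted p-value (27.0% of all genes tested), with a median of 0.95. This list, too, was chosen with earlier results known.

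The 4 J-proteins lower past both thresholds were at most 13.4 CPM in any library. Dnajc22 (mm9, chr15:98923601-98935168, plus strand) was counted 65 and 24 times under GSI and 3 and 3 times after washout. Over the pooled counts the level under GSI was 15.1 times that after washout, with a 95% counting interval of 6.68 to 42.3 (log2 fold change -3.78 ± 0.513, edgeR adjusted p = 0.00174). The log2 fold change was -3.02 without washout replicate 1, and between -3.60 and -4.31 when any other library was left out. With at least 10 counts in every library Dnajc22 was not tested. Dnajb13, a protein of the sperm flagellum, fell by 1.46 on the log2 scale, from 3.72 and 4.52 CPM to 1.32 and 1.71 CPM. Dnajc28 fell by 1.06 on the log2 scale, from 13.4 and 11.8 CPM to 5.29 and 6.99 CPM, and the log2 fold change was -0.96 without GSI replicate 1 and -0.85 without washout replicate 1. Dnajb7, with 27 and 18 counts against 12 and 4, fell by 1.58 on the log2 scale with an edgeR adjusted p of 0.0247. It was not tested with at least 10 counts in every library. Its adjusted p-value was 0.147 with DESeq2 and between 0.0600 and 0.138 when any 1 library was left out of the edgeR fit. Dnajb5, at -0.81, was the nearest member outside the lower size threshold, and its call at the adjusted p-value was lost with DESeq2 (0.0558), with the GC content and length offsets (0.0663) and without GSI replicate 1, GSI replicate 2 or washout replicate 1.

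The listed ER members had log2 fold changes between -0.96 and 0.35. This list was chosen with earlier results known and need not include every ER member. Hspa5 (mm9, chr2:34627490-34632051, plus strand), the ER HSP70 known as BiP and the classic readout of ER stress, was at 463.6 and 510.6 CPM under GSI and 524.7 and 579.0 CPM after washout. Its log2 fold change was 0.18 ± 0.117 (edgeR adjusted p = 0.240) and -0.02 with the total count alone. Of the 9 listed ER chaperones tested, 0 passed both thresholds, beside 7.74% higher and 11.7% lower among all genes tested. At the adjusted p-value 1, Hsp90b1, was higher and 1, Dnajc3, which restrains the stress kinase PERK, was lower, from 211.3 and 214.5 CPM to 172.3 and 165.2 CPM (log2 fold change -0.33, edgeR adjusted p = 0.0228). Dnajc3 lost this call without GSI replicate 1, GSI replicate 2 or washout replicate 2 (-0.29 to -0.35). The J-proteins Dnajb11, Dnajc10, Dnajb12 and Dnajc1 of this list had log2 fold changes of 0.27, 0.16, 0.14 and -0.01 without a call. Hspa13 had -0.13 without a call. Dnajb14, with 23 and 10 counts under GSI and 12 and 5 after washout, had -0.96 without a call. It passed the filter through the GSI libraries, where it was higher, so that its fall is partly fixed by the filter. Dnajb9 had 4, 0, 6 and 0 counts and was not tested. The median of the list was 0.14 and -0.06 with the total count alone. Among 13 ER folding genes outside the family, 0 were called past both thresholds. At the adjusted p-value 3 were higher and 1 was lower, beside 27.0% and 25.4% of all genes tested. Canx, the lectin chaperone calnexin, had the largest rise (0.73, edgeR adjusted p = 0.0506 without GSI replicate 2), and Xbp1, a transcription factor of the unfolded protein response, the largest fall (-0.80, and -1.0 with the total count alone).

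Promoter sequences give context to the ER genes, since BiP, GRP94 and Dnajc3 are the members whose windows hold the ER stress response element. Windows from 250 bases before to 50 bases after the start were taken from RefSeq (GRCm38.p6) and were available for 67 members. The element, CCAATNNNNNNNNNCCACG on either strand, was found in 3 of the 67 members and in 0.137% of all 27025 genes with a window. The stretches that hold it are printed 5′ to 3′ on the gene's strand, with the letters of the element in capitals. They lie at chr2:34772019-34772048 (plus strand), chr10:86705633-86705662 and chr10:86705528-86705557 (both minus strand) and chr14:118937821-118937850 (plus strand).
Hspa5: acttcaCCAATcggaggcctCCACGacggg
Hsp90b1 upstream: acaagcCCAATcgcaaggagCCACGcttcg
Hsp90b1 downstream: agagtgCGTGGtgaggcacgATTGGtgagt
Dnajc3: ccacaaCCAATcagcgccaaCCACGacccg
The second stretch of Hsp90b1 carries the element on the opposite strand. A match describes the letters of the window and is neither a bound site nor a cause.

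The heat-inducible genes did not move as a block. Of the 10 listed (Hspa1a, Hspa1b, Hsph1, Dnajb1, Hspb1, Hsp90aa1, Dnaja1, Hspa4l, Hspd1 and Hspe1), 9 were tested. The 4 that were higher past both thresholds (7.74% of all genes tested) were Hspd1, Hspe1, Hsp90aa1 and Hsph1. The 2 that were lower (11.7% of all genes tested) were the near-identical Hspa1a and Hspa1b. Hspa4l was lower at the adjusted p-value alone (log2 fold change -0.73, edgeR adjusted p = 0.00209). Dnaja1, a class A partner of HSP70, rose from 103.2 and 111.1 CPM to 156.4 and 160.7 CPM (log2 fold change 0.57, edgeR adjusted p = 0.00350). Dnajb1, the main heat-inducible partner of HSP70, was at 146.2 and 155.5 CPM under GSI and 108.9 and 133.3 CPM after washout. Its libraries did not overlap, but it had no call (-0.32, edgeR adjusted p = 0.0688). It was lower at the adjusted p-value with the total count alone (-0.52), with at least 10 counts in every library (-0.36), after thinning (-0.36) and without washout replicate 2 (-0.45). Of the 5 heat shock factor genes, the transcription factors that bind these promoters, 3 were tested. Hsf1 rose from 65.0 and 66.9 CPM to 88.1 and 99.0 CPM (0.50) and Hsf2 from 22.2 and 20.8 CPM to 33.2 and 27.6 CPM (0.50), but Hsf2 lost its call with the total count alone (edgeR adjusted p = 0.107), with the GC content and length offsets (0.0885) and without GSI replicate 1, GSI replicate 2 or washout replicate 1 (0.0730 to 0.0919). Hsf4, near the limit of the test at 1.69 and 1.85 CPM against 0.529 and 0.670 CPM, fell by 1.59 on the log2 scale (edgeR adjusted p = 0.0109, DESeq2 adjusted p = 0.0576). Without GSI replicate 1, GSI replicate 2 or washout replicate 1 its edgeR adjusted p-value was 0.0538 to 0.101.

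The heat shock element is made of alternating GAA and TTC units. The letters GAANNTTCNNGAA, which are 3 units in a row, were found on either strand in 4 members with a window and in 0.662% of all genes with one. These were Hspd1, Hspe1, Hsph1 and Dnajb6, the first 3 of which were among the 9 higher members with a window. Dnajb6, named here after its values were seen, had no call (log2 fold change 0.22). Of 2 units, GAANNTTC was found in 16 of 67 members and 9.04% of all genes and TTCNNGAA in 8 of 67 members and 9.60% of all genes, and each is part of the longer motif. Hspd1 and Hspe1 share their match, as their windows overlap on opposite strands. In the windows of Hspa1a and Hspa1b, which are identical at 296 of 300 bases, the only exact match was GAANNTTC. Units with a mismatch were not searched, so that the full length of the element in these windows is not settled. The stretches before the start are printed 5′ to 3′ with the exactly matched units in capitals, since they set a rising pair of neighbours beside a falling pair. They lie at chr1:55088053-55088082 (plus strand), chr17:34972242-34972271 and chr17:34959324-34959353 (both minus strand) in GRCm38.p6.
Hspe1: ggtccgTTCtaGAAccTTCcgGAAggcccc
Hspa1a: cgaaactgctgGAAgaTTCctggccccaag
Hspa1b: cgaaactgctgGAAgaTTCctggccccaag
Of 2 other motifs read in the same windows, the E-box CACGTG was found in 6 of 67 members (8.09% of all genes) and TGGGAA, the core of the RBPJ motif, in 18 of 67 members (26.9%, and 28.3% of all genes). The E-box was in 2 of the 9 higher members, Hspd1 and Hsph1, and in 0 of the 7 lower ones. The RBPJ core was in 1 of the 9 higher members, Cct8, and in 3 of the 7 lower ones, Cct6b, Dnajb13 and Dnajc28. No window was available for Cct4, Dnajc2, Dnajc11, Dnajc22, Hsp90aa1, Hsp90ab1, Hspa8 and Hspa9, among others.

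**Figure D5:**
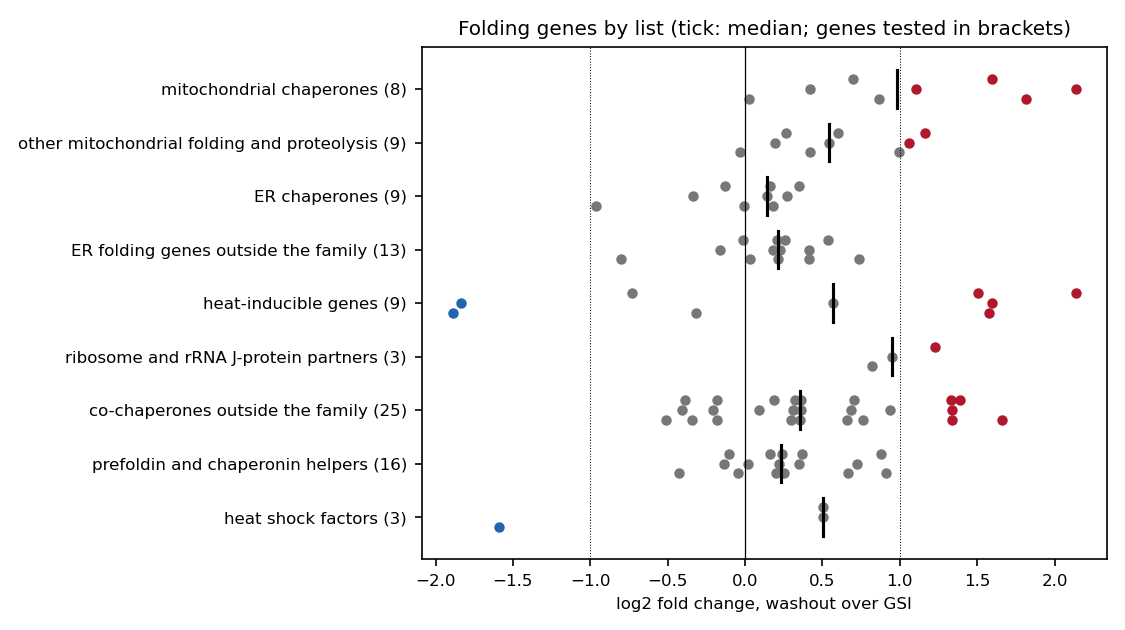
Log2 fold change of washout over GSI for the tested genes of 9 lists of folding genes, with red for higher and blue for lower past both thresholds and a vertical tick at the median. The mitochondrial chaperones lie to the right with a median of 0.98, the ER chaperones around 0 with a median of 0.14, and the heat-inducible genes on both sides.

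The partners of these chaperones outside the family moved in both directions. Of 25 co-chaperones, 5 were higher past both thresholds (7.74% of all genes tested). At the adjusted p-value 14 were higher and 4 lower (27.0% and 25.4% of all genes tested), with a median log2 fold change of 0.35. Ptges3, the HSP90 co-chaperone p23, had the largest rise, from 90.0 and 79.4 CPM to 330.3 and 204.7 CPM (1.66, edgeR adjusted p = 0.00177). Sil1, the nucleotide exchange factor of BiP, had the largest fall, from 37.1 and 35.4 CPM to 26.0 and 24.9 CPM (-0.51, edgeR adjusted p = 0.00883, and 0.0666 without GSI replicate 1). Of 16 prefoldin subunits and other helpers of CCT and tubulin folding, 0 were called past both thresholds. At the adjusted p-value 5 were higher, near the share of all genes tested (27.0%), and 1 was lower (25.4%). The median of these helpers was 0.23 (0.03 with the total count alone). The prefoldin subunits Vbp1 and Pfdn5 marked the ends of this list, at 0.91 and -0.43, the latter without a call when GSI replicate 1 or washout replicate 1 was left out (edgeR adjusted p = 0.107 and 0.0555).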

How the data were processed

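RNA-Seq was analysed in 4 libraries, 2 per condition, grouped by the deposited labels. The authors trimmed and aligned the reads (mm9, HISAT2 2.2.1 per the submitters' processing notes), keeping 1 alignment per read, and deposited raw counts per gene without normalization. The kit keeps strand information, but strand setting and overlap mode of the counting are not given in the sources used here. All columns of the table were used, and no comparison by the authors was.

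The test was run in R 4.3.3 with edgeR 4.0.16 (filterByExpr, TMM, estimateDisp, quasi-likelihood test without covariates, Benjamini-Hochberg adjustment over all 12266 genes tested), and the steps were tested on simulated data. Standard errors follow from the F statistic, as the log2 fold change over its square root. Thresholds were an adjusted p under 0.05 and a log2 fold change of 1, as in the study's methods. With 2 against 2 libraries an exact permutation test of a single gene cannot go below p = 0.333 (two-sided), so none was used. Intervals and floors cover counting error only. The members, role groups and lists were chosen with earlier results of these data known, and no set test was run. Named were all tested members other than J-proteins, J-proteins past both thresholds whose average level was at least 3 log2 CPM, the 5 largest rises and 5 largest falls among J-proteins at the adjusted p-value, the members of the lists, the ends of each outside list, the neighbours of each threshold and the untested members. Levels per length used the longest transcript.

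Positions, lengths and GC content came from GENCODE vM1 (mm9), where 20641 of 24391 symbols matched a single gene. Hspa14 did not and is given without a position. Close copies are matches of the longest coding transcript to the mm9 genome by blastn 2.17.0 over at least 100 bases at 97% identity or more. Promoter windows came from RefSeq (GRCm38.p6), with no sequence from chromosome 18. Alternatives were DESeq2 1.42.0, RLE size factors, the total count alone, a filter of 1 count in all or of 10 counts in each library, thinning to 13716199 counts, GC content and length offsets (for 10962 genes), glmTreat, a prior count of 2, the replicate number as a block, and leaving out each library in turn, where the lone library is assumed to vary like the other condition.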

Additional observations from a re-analysis of the deposited data

How the results depend on the processing

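Past both thresholds, 14 higher and 8 lower members became 7 and 1 with glmTreat against a log2 fold change of 1, and 5 were lower with at least 10 counts in every library. Leaving out each library in turn gave 12 to 17 higher and 5 to 7 lower members, with 5 lower without washout replicate 1. At the adjusted p-value alone these fits gave 26 to 32 higher and 8 to 13 lower members, with 8 lower without GSI replicate 2, and 20 were lower with the total count alone and 21 with GC content and length offsets and the replicate block. The median log2 fold change of the members, 0.20, was 0.000287 with the total count alone, 0.11 with the GC content and length offsets and 0.089 with these and the block, and between 0.16 and 0.28 when 1 library was left out. Replicate numbers were shared between conditions without a stated link. The deviations of the replicate 1 libraries correlated at 0.497, and with the replicate block 14 members were higher and 8 lower past both thresholds. At the adjusted p-value the block moved the counts from 29 to 33 higher and from 13 to 19 lower, so that 10 members without a call gained one, among them Dnajb1, Dnajb11, Dnajc19, Hspa1l, Hspb9 and Hspb11. Hspd1, Hspa9, Hspe1, Hsp90aa1, Cct3, Cct6a and Cct8 were called higher in all 16 alternatives.

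Changes of sign were found among genes without a call. With the total count alone the log2 fold change was -0.059 for Dnajb12, -0.042 for Dnajc10, -0.17 for Dnajc30 and -0.019 for Hspa5. With the GC content and length offsets it was -0.016 for Dnajc10, -0.013 for Hspa5, 0.078 for Dnajc1 and 0.12 for Spg7, and with the replicate block in addition -0.018, -0.014, 0.073 and 0.12. Dnajc1 was at 0.011 with DESeq2 and 0.031 without a filter. Dnajc30 was at -0.013 with at least 10 counts and -0.00384 with the replicate block, and Spg7 at 0.00159 without a filter. Leaving out each library in turn gave -0.053 to 0.047 for Dnajc1, -0.15 to 0.22 for Dnajc30, -0.026 to 0.76 for Hspa12b and -0.091 to 0.043 for Spg7, with the sign turned without GSI replicate 2 or washout replicate 1 for Dnajc1, without washout replicate 2 for Dnajc30 and Hspa12b and without washout replicate 1 for Spg7. The cause of these changes was not tested.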
